A study of Mus musculus with 3 samples.

Results

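The genes examined here are 27 genes of cholesterol synthesis and its control, chosen by name from the pathway and found in all 3 count tables, out of 24071 genes listed. They comprise 18 enzymes, 5 genes of the SREBP control circuit, and 4 genes for sterol carriage, sterol efflux and lipid handling. The study profiled single cells of mouse retina at postnatal day 26 with a droplet method that tags the 3′ end of each transcript. There was 1 library from wild-type mice (WT), 1 from mice lacking Tspan12 (Tspan12 KO, below KO), and 1 from Tspan12 KO mice given F4L5.13 (below treated), first at 10 mg/kg and later at 4 mg/kg, into the peritoneum. All 3 carry the same strain label, Tspan12tm1.2Hjug. How many animals or retinas went into a library is not stated in the sources at hand. TSPAN12 is a co-receptor for norrin signalling in retinal blood vessels, and F4L5.13 is an antibody that joins the norrin receptor Frizzled4 to its partner LRP5. Before capture, beads removed photoreceptors and dying cells, so cell numbers per class were set in part by that step.

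With 1 library per group there are no replicates, so no test between conditions was possible and no p-value is given. Every interval below is a 95% counting interval, which covers counting error only. Levels are given as CPM, the reads of a gene scaled to a fixed total of all reads in a cell class of a library. A ratio counts as past 1.5-fold when it is at least that size in either direction and its interval leaves out 1. Genes were compared when they had at least 40 molecule equivalents (reads divided by the estimated reads per molecule) over both libraries.

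Cholesterol is built from acetyl-CoA in a long chain of steps. The early, mevalonate steps make isoprenoid units, which are joined to squalene and closed into lanosterol, and the later steps trim lanosterol to cholesterol. Among the enzymes studied here, 4 consume molecular oxygen, namely Sqle (squalene epoxidase), Cyp51 (lanosterol demethylase), Msmo1 (sterol-C4-methyl oxidase) and Sc5d (sterol desaturase). When membrane sterol is low, SCAP carries the transcription factor SREBP2 to the Golgi, where it is cut free and switches on the enzyme genes. INSIG1 and INSIG2 hold SCAP back, and Insig1 is itself an SREBP target. ABCA1 and ABCG1 export sterol and are targets of the oxysterol-sensing LXR receptors. In the retina, Müller glia are thought to supply sterol to neurons.

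The promoters of the enzyme genes share a feature that the choice of genes did not use. RefSeq windows on GRCm38.p6, each running from 250 bases before to 50 after a transcript start, were found for 22 of the 27 genes, in 30 windows. The CCAAT box (letters CCAAT, on either strand), the binding motif of NF-Y, which works together with SREBP2 at many sterol genes, occurred in windows of 14 of the 15 matched enzymes. It occurred in 37.4% of all 32851 windows. Counted by window, it stood in 14 of the 18 enzyme windows. Just 1 of the 30 windows, that of Hmgcs1, held a sterol regulatory element of the form TCACNCCAC on either strand, against 1.24% of all windows. The letters ACGTG, the core of a hypoxia response element, were present in 7 of the 30 windows, against 19.6% of all windows, and the variant GCGTG in 15 of the 30, against 32.4%. A match describes letters in a window and shows no binding.

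The stretches before the start of 5 of the genes described below are shown, 4 lower and 1 higher in KO than in WT Müller cells. They are a selection. Hmgcs1 is shown although its difference was not past 1.5-fold, and Lss, which was past 1.5-fold lower, is not shown. Each stretch is the 250 bases before the start, 5′ to 3′ on the gene's own strand, from RefSeq on GRCm38.p6. Capitals mark CCAAT boxes on either strand and, in Hmgcs1, also the sterol regulatory element, which begins 137 bases before the start.
Hmgcs1, chr13:119690101-119690350, plus strand: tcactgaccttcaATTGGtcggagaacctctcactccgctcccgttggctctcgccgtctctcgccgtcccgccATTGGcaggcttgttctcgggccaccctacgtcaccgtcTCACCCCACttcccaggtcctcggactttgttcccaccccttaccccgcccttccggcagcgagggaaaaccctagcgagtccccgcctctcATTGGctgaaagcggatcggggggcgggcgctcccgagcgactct
Cyp51, chr5:4104698-4104947, minus strand: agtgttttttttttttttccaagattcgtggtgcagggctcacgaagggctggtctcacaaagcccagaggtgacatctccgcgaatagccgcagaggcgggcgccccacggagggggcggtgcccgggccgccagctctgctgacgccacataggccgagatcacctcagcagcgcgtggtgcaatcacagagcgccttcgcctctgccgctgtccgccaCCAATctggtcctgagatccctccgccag
Msmo1, chr8:64733579-64733828, minus strand: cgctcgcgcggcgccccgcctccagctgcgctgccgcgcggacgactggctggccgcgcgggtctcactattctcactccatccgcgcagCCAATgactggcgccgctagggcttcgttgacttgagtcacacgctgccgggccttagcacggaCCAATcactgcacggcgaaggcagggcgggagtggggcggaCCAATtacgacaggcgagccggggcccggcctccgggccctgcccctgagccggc
Insig1, chr5:28071162-28071411, plus strand: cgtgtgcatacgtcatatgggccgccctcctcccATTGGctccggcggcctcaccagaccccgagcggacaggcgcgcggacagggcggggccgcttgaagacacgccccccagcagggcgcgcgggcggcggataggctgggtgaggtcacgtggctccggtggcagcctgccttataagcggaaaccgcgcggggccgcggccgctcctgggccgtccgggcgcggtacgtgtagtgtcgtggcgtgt
Abca1, chr4:53159896-53160145, minus strand: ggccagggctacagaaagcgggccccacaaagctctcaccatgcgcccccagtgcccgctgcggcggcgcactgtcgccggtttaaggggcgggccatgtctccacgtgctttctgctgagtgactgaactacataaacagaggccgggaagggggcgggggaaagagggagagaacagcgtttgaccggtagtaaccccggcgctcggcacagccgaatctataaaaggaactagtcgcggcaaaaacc
Msmo1 has 3 CCAAT boxes before its RefSeq start, Hmgcs1 has 3, Cyp51 and Insig1 have 1 each, and the Abca1 stretch has none. The GENCODE starts of these genes differ, except that of Abca1. The GENCODE gene of Msmo1 reaches to 64733792, so most of its stretch, with its 3 boxes, lies inside that gene. The last part of the Cyp51 and Insig1 stretches also lies inside the GENCODE gene. The letters ACGTG on both strands, overlapping as CACGTG, begin 101 bases before the start of Insig1 and 147 bases before that of Abca1.

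Cells were clustered and named from marker genes. Müller cells numbered 1627 in WT, 1138 in KO and 1027 in treated, with a median of 19238, 26591.5 and 22858 reads per cell, in 3 clusters that each had all 12 Müller markers raised. The clusters were filled unequally by the libraries. Cluster 2 held 1250 WT, 34 KO and 590 treated cells, cluster 5 held 39, 780 and 129, and cluster 4 held 338, 324 and 308. KO Müller cells therefore lay mostly in cluster 5 and WT Müller cells mostly in cluster 2. Cluster 5 was led by Adm and Ndufa4l2, which hypoxia induces, followed by Hsd17b2, Apln, Ifit1, Nupr1, Atf3, S100a6, Isg15 and Ifit3. Between 15 and 31 cell barcodes were shared by any pair of libraries, out of 6092 to 10769 barcodes per library. Tspan12 read 47.5 CPM in WT, 32.5 in KO and 29.7 in treated Müller cells. Reads from outside the deleted part of a gene check nothing and the deleted part is not stated in the sources at hand.

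In Müller cells most sterol enzymes had lower levels in KO than in WT, and in treated the enzyme median was near WT. Inside the cluster most evenly shared by the libraries the KO and WT difference was smaller. The median over the 17 enzymes compared was −0.42 on the log2 scale for KO over WT, and the interval of the median enzyme ran from −0.62 to −0.21. For all 14028 genes compared, the median was −0.05. Of the 17 enzymes, 14 had a ratio under 1 and 3 above it, and 3 were past 1.5-fold lower (Lss, Cyp51 and Msmo1). Of all genes, 7825 had a ratio under 1 and 6203 above it. The enzyme median was −0.13 in cluster 4 and −0.17 when each cell was thinned to 5000 reads. For treated over KO the enzyme median was 0.27 (−0.14 to 0.67), with 13 higher and 4 lower, against 0.04 for all genes. For treated over WT it was −0.02 (−0.20 to 0.17), with 7 higher and 10 lower. KO is a term of both of the first comparisons, so they are not separate evidence. Summed over the 18 enzymes, levels were 502 CPM in WT, 436 in KO and 495 in treated. Inside cluster 4 the sums were 471, 492 and 481 CPM, highest in KO. These sums include Pmvk, at 66.7 CPM in WT and 136 in KO there.

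**Figure D1:**
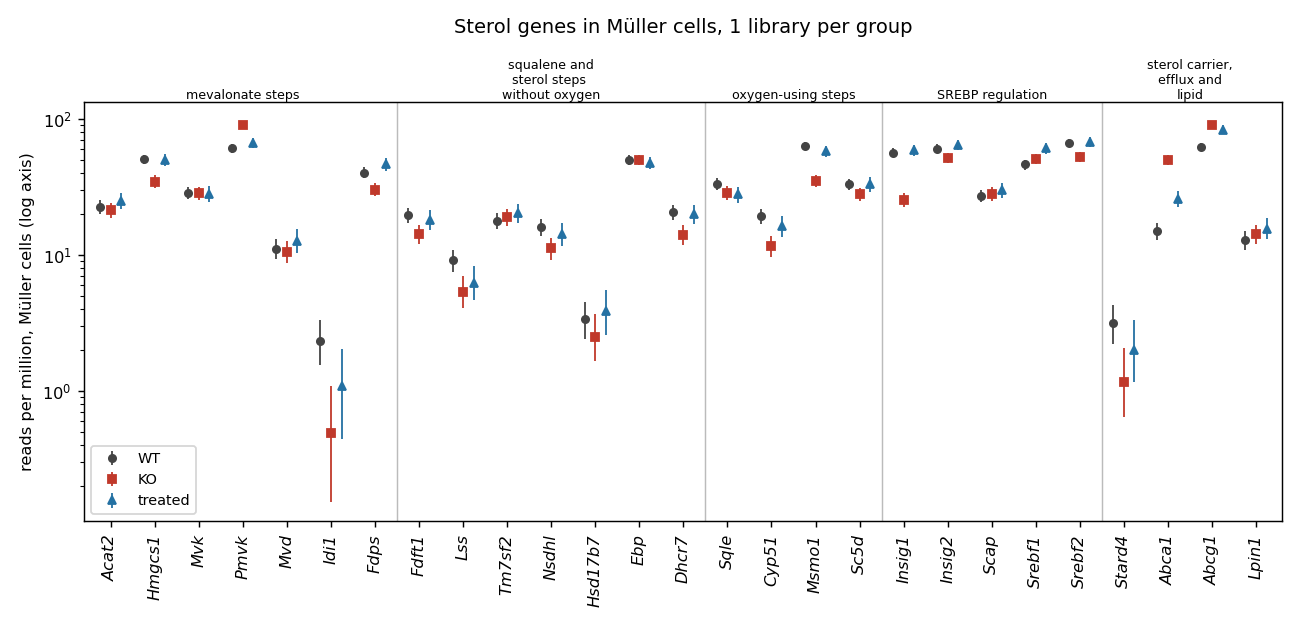
Level of each of the 27 genes in Müller cells, in CPM on a log axis, with 1 point per library (WT circles, KO squares, treated triangles) and bars for 95% Poisson counting intervals. Msmo1, Cyp51, Hmgcs1 and Insig1 have their lowest point in KO, while Abca1 and Pmvk have their highest point there.

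Among all 27 genes, 26 could be compared between KO and WT, and 18 were lower and 8 higher. Past 1.5-fold lower were 5 genes, Lss, Cyp51, Msmo1, Insig1 and Stard4, in a comparison where 8.90% of all genes were. Only Abca1 was past 1.5-fold higher, where 6.82% of all genes were. For treated over KO, 3 of the 25 genes compared were past 1.5-fold higher (Fdps, Msmo1 and Insig1), with 6.94% of all genes, and 1 was lower (Abca1), with 5.83% of all genes. For treated over WT, 1 of 26 was higher (Abca1), with 2.85% of all genes, and 0 were lower, with 2.83% of all genes. Idi1 was under the minimum in all 3 comparisons, at 2.34 CPM in WT, 0.486 in KO and 1.08 in treated.

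The size of the KO and WT difference in the enzymes differed between clusters. In cluster 4, the most evenly shared one, the median of −0.13 was over 16 enzymes, with 10 ratios under 1 and 6 above it. In that cluster 2 of 24 genes were past 1.5-fold higher, Pmvk and Abca1, where 6.17% of all 10984 genes were, and 0 were past it lower, where 5.62% were. There the ratios of Msmo1, Cyp51, Lss and Insig1 were between 0.729 and 0.785. The median in thinned cells was over 15 enzymes. The 2 least even clusters gave −0.22 (cluster 2, with 34 KO cells) and −0.47 (cluster 5, with 39 WT cells).

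Of the oxygen-using enzymes, Msmo1 and Cyp51 had the lowest KO over WT ratios. Msmo1, on chromosome 8 (GRCm38, 64718139 to 64733792, minus strand), read 63.7 CPM in WT, 34.8 in KO and 57.8 in treated. KO was thus the lowest library, with a ratio to WT of 0.547 (0.483 to 0.620), and treated was 1.66 times KO (1.44 to 1.91). Cyp51, on chromosome 5 (4081145 to 4104746, minus strand), read 19.2, 11.6 and 16.3 CPM. Its KO level was 0.603 of WT (0.483 to 0.752), and its treated level was 1.40 times KO (1.08 to 1.80). Its exons share up to 166 bases with Akap9 on the opposite strand, so the reads of both genes can be told apart only if the counting used strand, which the sources at hand do not state.

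The other oxygen-using enzymes differed less. Sqle, which makes the epoxide that is closed into lanosterol, read 33.4 CPM in WT, 28.5 in KO and 27.9 in treated. Its KO level was 0.856 of WT (0.735 to 0.993), and treated stayed with KO (ratio 0.978, 0.817 to 1.17). Sc5d read 33.1, 27.9 and 33.2 CPM, with KO at 0.842 of WT (0.723 to 0.979) and treated at 1.00 of WT (0.852 to 1.17). As a group the oxygen-using enzymes had a median log2 ratio of −0.49 for KO over WT, and the other 13 enzymes compared had −0.42. The difference of these medians, −0.07, ran from −0.41 to −0.06 over the alternative settings. For treated over WT the oxygen-using median was −0.19 (−0.57 to 0.07) and that of the others −0.01 (−0.26 to 0.24). That difference, −0.18, ran from −0.36 to −0.11 over the alternative settings.

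Inside each of the 3 clusters, all 4 oxygen-using enzymes had a KO over WT ratio under 1, with medians of −0.46 in cluster 2, −0.32 in cluster 4 and −1.20 in cluster 5. Their summed WT level was 159.8 CPM in cluster 2, 118 in cluster 4 and 233 in the 39 WT cells of cluster 5. The KO sums were 101, 97.3 and 106 CPM. The low ratios in cluster 5 thus went with a higher WT level, while the KO level was similar in all 3 clusters. Few of the KO over WT ratios had an interval that leaves out 1. In cluster 4 none of the 4 did, the upper bound of Msmo1 being 1.000, in cluster 2 only Msmo1 did, and in cluster 5 Sqle, Cyp51 and Msmo1 did. The other enzymes had medians of 0.02, −0.03 and −0.31, with 6 of 12, 6 of 12 and 9 of 11 under 1. All genes had medians of −0.07, −0.01 and −0.01, with 6276 of 11452, 5658 of 10984 and 5458 of 10784 under 1. In cluster 4 treated over KO was 0.38 for the oxygen-using steps, with 4 of 4 higher, and −0.03 for the others, with 5 of 12 higher. For all genes it was −0.00 there, with 5232 of 10576 higher. In cluster 2 the treated over KO medians were 0.27 and 0.30, beside 0.09 for all genes, and in cluster 5 they were 0.53 and 0.17, beside 0.04. Whether the oxygen-using and the other steps differ was not tested. The 3 clusters come from the same libraries and are not replicates, and single ratios in clusters 2 and 5 rest on as few as 34 and 39 cells of 1 library.

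**Figure D2:**
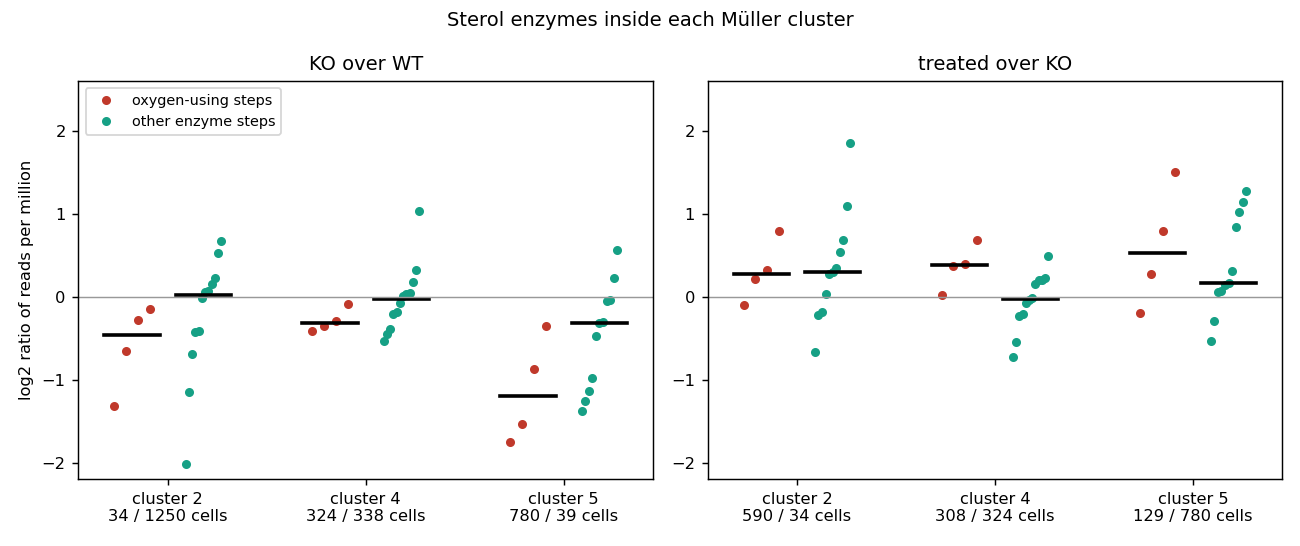
Log2 ratios of the enzymes inside each Müller cluster for KO over WT (left) and treated over KO (right), with cell numbers of the first and second library under each cluster, 1 point per enzyme (red: oxygen-using, green: other) and black lines at the medians. For KO over WT all 12 red points lie under 0, while the green points lie on both sides of it.

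The mevalonate enzymes differed in direction. Hmgcs1, which makes HMG-CoA and lies on chromosome 13 (119690379 to 119708260, plus strand), read 50.5 CPM in WT, 34.7 in KO and 49.8 in treated. Its KO level was 0.688 of WT (0.605 to 0.784), but in cluster 4 the log2 ratio was 0.05. Fdps, which makes farnesyl diphosphate, read 40.4, 30.3 and 46.4 CPM, and treated was 1.53 times KO (1.32 to 1.78). Its cluster 4 ratio of KO to WT was 0.690 (0.549 to 0.862), close to that over all Müller cells, 0.749 (0.651 to 0.864).

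Pmvk, the phosphomevalonate kinase, went the other way. It read 61.0 CPM in WT, 91.1 in KO and 66.8 in treated, so that KO was 1.49 times WT (1.36 to 1.65) and treated was 0.733 of KO (0.659 to 0.817). In cluster 4 KO was 2.04 times WT (1.74 to 2.39). Pmvk was also higher in KO photoreceptors. In rods it read 63.6 CPM in WT, 310.3 in KO and 114 in treated, with KO at 4.88 times WT (3.88 to 6.19). In cones it read 79.2, 185 and 90.8 CPM, with KO at 2.33 times WT (2.01 to 2.72). The median KO over WT ratio of all genes was 1.34 in rods and 1.05 in cones. WT and KO rods differed in depth and clusters, as given below. Rod markers in Müller cells summed to 9982, 8341 and 9985 CPM, lowest in KO, and the part of rod RNA in the Müller values of Pmvk was not tested.

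The other kinase and the remaining mevalonate enzymes with enough reads differed little between libraries. Mvk, the kinase before Pmvk, read 28.4, 28.4 and 28.3 CPM. Mvd (11.0, 10.5 and 12.6 CPM) and Acat2 (22.6, 21.3 and 24.9 CPM) had KO over WT intervals that include 1, and Acat2 has a close copy, Acat3, that can share its reads.

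Steps between squalene and cholesterol that use no oxygen were mostly lower in KO. Lss, which closes the sterol rings, read 9.13 CPM in WT, 5.38 in KO and 6.25 in treated, a KO over WT ratio of 0.589 (0.424 to 0.819). Nsdhl (16.1, 11.2 and 14.2 CPM), Fdft1 (19.6 CPM in WT and 14.2 in KO) and Dhcr7 (20.6 CPM in WT and 20.0 in treated) had KO over WT ratios of 0.696, 0.723 and 0.680, each with an interval under 1. Treated over KO was 1.27 for Fdft1 (1.01 to 1.62) and 1.43 for Dhcr7 (1.13 to 1.79). In cluster 4 Dhcr7 had a log2 ratio of 0.18, on the other side of 0. Fdft1 shares up to 774 exon bases with Ctsb on the opposite strand.

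The remaining enzymes of that stretch were level or sparse. Ebp, the sterol isomerase, read 50.0, 50.1 and 47.6 CPM in WT, KO and treated. Tm7sf2, a sterol reductase, read 17.8, 18.9 and 20.2 CPM, but it shares 532 exon bases with Vps51 on the same strand, so its reads are uncertain. Hsd17b7 was low at 3.38, 2.49 and 3.85 CPM, and its interval for KO over WT (0.444 to 1.24) includes 1.

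**Figure D3:**
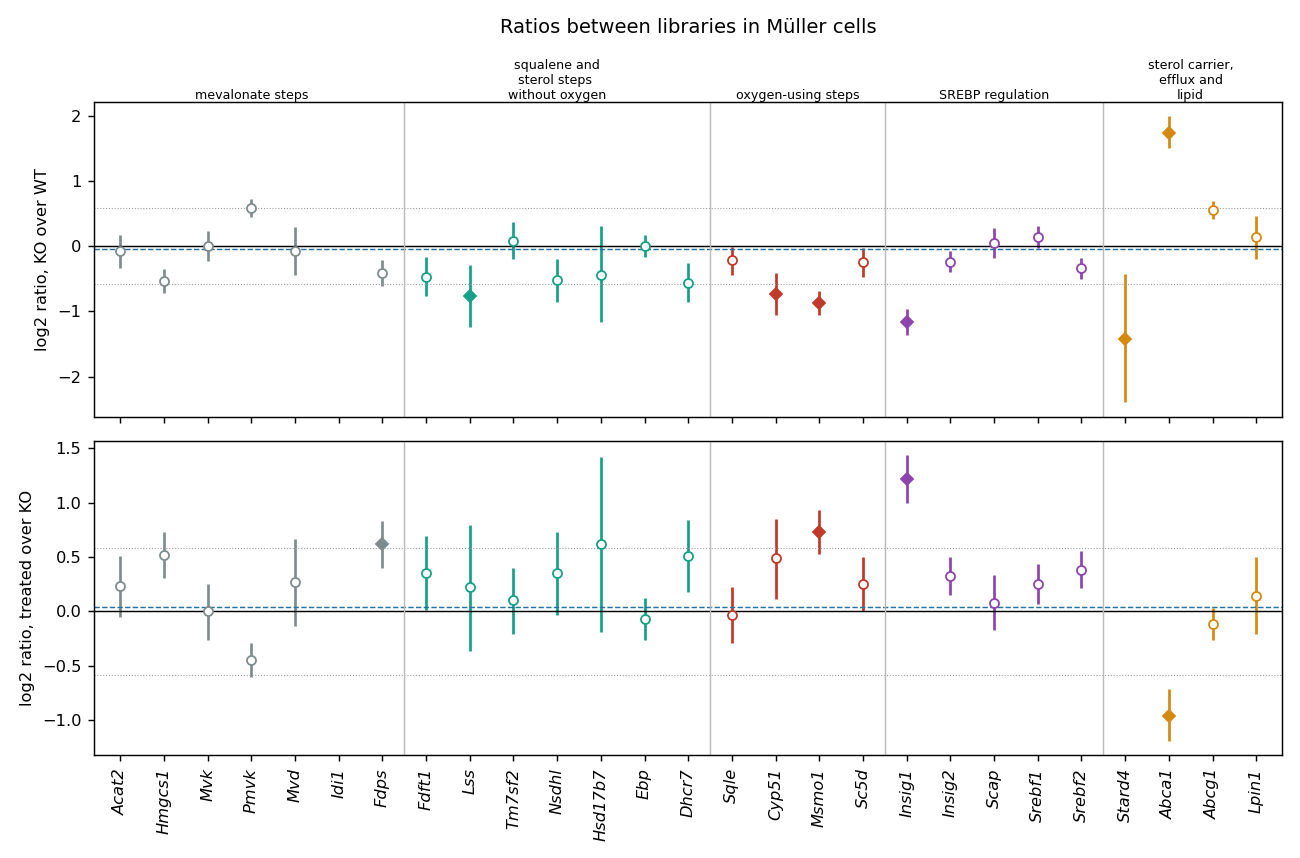
Log2 ratio of each gene in Müller cells for KO over WT (top) and treated over KO (bottom), coloured by role, with 95% counting intervals, filled diamonds for genes past 1.5-fold, dotted lines at 1.5-fold and a dashed line at the median of all genes. Insig1 is lower in the top panel and higher in the bottom one, Abca1 shows the reverse, and Idi1 and, at the bottom, Stard4 are left out as too sparse.

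Among the regulators, Insig1 differed most. It lies on chromosome 5 (28071363 to 28078662, plus strand) and read 56.6 CPM in WT, 25.3 in KO and 58.9 in treated. KO was the one low library, at 0.447 of WT (0.387 to 0.515), treated was 2.33 times KO (KO at 0.429 of treated, 0.369 to 0.501), and treated over WT was 1.04 (0.923 to 1.17). In cluster 4 the levels were 33.4, 24.3 and 43.1 CPM, and KO over WT was 0.729 (0.542 to 0.965), so the size of this difference also depended on the cluster. In cluster 5 KO over WT was 0.299 (0.196 to 0.474), from 84.5 CPM in its 39 WT cells and 25.3 in KO.

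The other regulators differed by less than 1.5-fold. Srebf2, which encodes SREBP2, read 66.4, 52.3 and 68.2 CPM, with KO at 0.788 of WT (0.707 to 0.879). Insig2 read 60.7, 51.5 and 64.3 CPM, with KO at 0.848 of WT (0.758 to 0.946). Scap was level at 27.2, 28.2 and 29.8 CPM. Srebf1, whose product favours fatty acid genes, was highest in treated, at 46.3, 51.1 and 60.9 CPM, or 1.32 times WT (1.17 to 1.49).

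The sterol exporter Abca1 had its highest level in KO. Abca1, on chromosome 4 (53030787 to 53159895, minus strand), read 15.0 CPM in WT, 50.1 in KO and 25.8 in treated. KO was 3.35 times WT (2.83 to 3.98), and treated, at 0.515 of KO (0.437 to 0.608), was still 1.72 times WT (1.41 to 2.12). The difference was similar inside clusters, with 49.6 against 16.3 CPM in cluster 4, 53.2 against 14.6 in cluster 2 and 50.2 against 9.79 in cluster 5. Abcg1 read 62.2, 90.9 and 83.7 CPM, so KO was 1.46 times WT (1.33 to 1.61) and treated was at 0.921 of KO (0.833 to 1.02).

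The last members were low or level. Stard4, a cytosolic sterol carrier, read 3.15 CPM in WT and 1.17 in KO, a ratio of 0.371 (0.190 to 0.743) that rests on few reads. Its treated level was 0.636 of WT (0.343 to 1.20). Lpin1, a phosphatidate phosphatase, read 12.8, 14.2 and 15.6 CPM, with intervals that include 1 in all 3 comparisons.

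Other gene lists of the same biology were read beside these genes in Müller cells. Of 12 SREBP1 and fatty acid genes, 11 were compared between KO and WT, with a median of 0.10, 3 past 1.5-fold higher (6.82% of all genes were) and 1 lower (8.90% were). Me1, which makes NADPH for lipid synthesis, read 16.5 CPM in WT, 48.9 in KO and 22.6 in treated. Gpam, which starts glycerolipid synthesis, read 16.3, 44.8 and 31.9 CPM. Acss2, which makes acetyl-CoA from acetate, was past 1.5-fold lower in KO, at 0.608 of WT (0.496 to 0.742).

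Lists closer to sterol handling had medians between −0.17 and 0.03, beside −0.05 for all genes. The median over 16 of 18 sterol transport, storage and oxysterol genes was 0.03 for KO over WT, with 1 past 1.5-fold higher (Mylip, 1.51) and 2 lower (Nr1h3, 0.447, and Tmem97, 0.605). Against 6.82% of all genes higher and 8.90% lower, nothing particular to this list is read from these counts, nor from those of the next lists. The 10 genes of SREBP processing and sterol-driven protein decay had a median of −0.17, with 1 lower (Rnf139, 0.587). The 9 genes of the nonsterol isoprenoid branch had a median of −0.06, with 0 past 1.5-fold in either direction.

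Hypoxia genes and other-cell markers are given beside these values. All 12 hypoxia genes were higher in KO than in WT Müller cells (median 0.91) and lower in treated than in KO (median −0.97). Of all genes, 6203 of 14028 were higher in KO than in WT (median −0.05). In treated 6129 of 13411 were lower than in KO (median 0.04). The list was chosen with earlier results of these data known and includes Adm and Ndufa4l2, which led cluster 5, so its counts are not separate evidence. Rod markers, of which 12 of 12 had reads, summed to 9982 CPM in WT, 8341 in KO and 9985 in treated Müller cells. Erythrocyte markers, 6 of 6 with reads, summed to 354, 8.81 and 709 CPM, and mitochondrial reads were 4.81%, 3.90% and 4.53%. Their part in the sterol differences was not tested.

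Müller cells of each library were ranked by Ndufa4l2, a hypoxia-induced gene, and split in 3 equal parts. Only in KO did the lowest part hold many reads of it (374 CPM, against 3185 in the highest), since in WT the lowest and middle parts and in treated the lowest part had 0 reads and were ordered by depth. In KO the enzymes summed to 471, 427 and 409.6 CPM from the lowest to the highest part, and the median log2 ratio of highest to lowest was −0.03, as against −0.04 for all genes. In WT it was −0.23 for all enzymes, −0.28 for the oxygen-using ones and 0.07 for the others, as against −0.02 for all genes, and Msmo1 was at 0.783 (0.650 to 0.944). The WT parts also differed in depth, with a median of 15807 reads per cell in the lowest and 22834 in the highest. Of the 542 cells in the highest WT part, 103 had no Ndufa4l2 reads. In treated the enzyme median was −0.07, as against −0.01 for all genes. The split seen in WT was not seen in the other libraries. The oxygen-using enzymes had −0.02 and the others −0.05 in KO, and −0.06 and −0.12 in treated. Insig1 was lower in the highest part of each library. Highest over lowest was 0.756 in WT (0.623 to 0.923), 0.743 in KO (0.543 to 0.995) and 0.743 in treated cells (0.588 to 0.948). Msmo1 was level across the KO parts, at 36.2 CPM in the lowest and 36.0 in the highest, and so was Abca1, at 49.2 and 50.2 CPM. Some other enzymes were lower in the highest KO part, with intervals that leave out 1. These were Hmgcs1 (0.744, 0.571 to 0.958), Pmvk (0.718, 0.611 to 0.840), Fdps (0.713, 0.534 to 0.952) and Fdft1 (0.615, 0.413 to 0.924). Of the 15 enzymes compared in KO, none was higher with such an interval. The lowest KO part was not low in hypoxia genes beside WT. It held 374 CPM of Ndufa4l2 and 3543 of the other hypoxia genes, against 241 and 2509 in the highest WT part.

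Across cell classes, amacrine interneurons had the highest sterol enzyme levels of the 5 classes with over 50 cells in every library. The 18 enzymes summed to 1385 CPM in WT, 1182 in KO and 1383 in treated amacrine cells (117, 1211 and 135 cells), against 493, 475 and 480.2 CPM in bipolar cells. Of the 18 enzymes, 14 were highest in amacrine cells in all 3 libraries, including all 4 oxygen-using ones. The share of all genes highest in amacrine cells was not computed, so nothing particular to the enzymes is read from this count. Sqle, for example, read 85.7, 75.1 and 78.4 CPM in amacrine cells and 17.3, 21.3 and 18.9 CPM in bipolar cells. Insig1 had the order amacrine, Müller, bipolar, cone, rod in every library, with 115, 97.0 and 117 CPM in amacrine cells. Horizontal cells, few in number (41, 80 and 94), had sums of 1461, 1006 and 1372 CPM. Ganglion cells (2, 29 and 5) had 2276, 1232 and 1784 CPM, and astrocytes (53, 29 and 16) had 884, 799 and 1495 CPM.

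**Figure D4:**
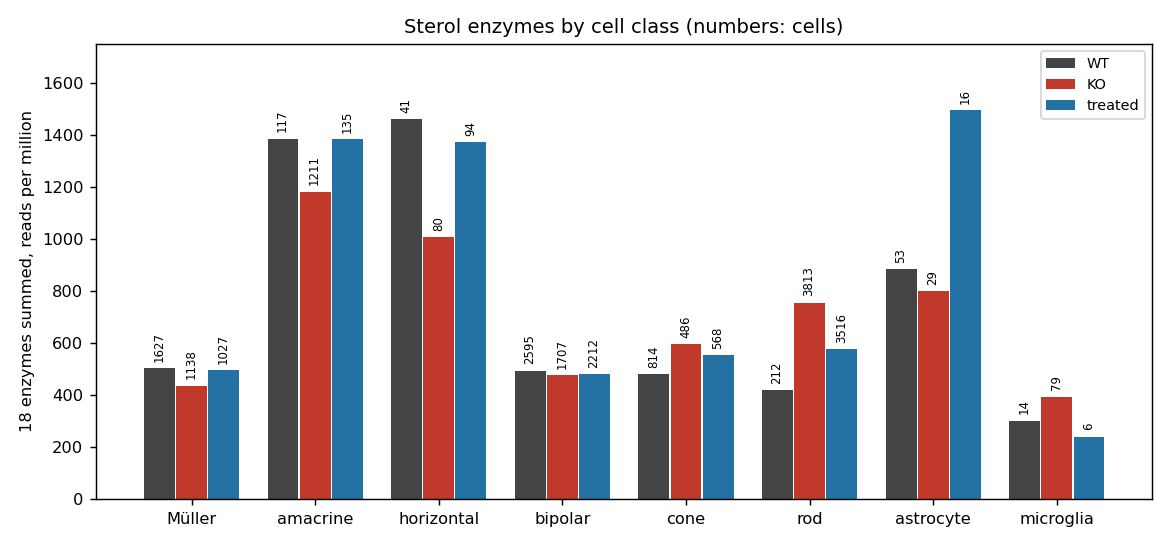
Sum of the 18 enzymes in CPM by cell class and library, with the number of cells above each bar and no error bars. Amacrine cells (1182 to 1385) and horizontal cells (1006 to 1461) stand above Müller cells (436 to 502) and bipolar cells (475 to 493) in every library.

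The KO difference seen in Müller cells was not seen in bipolar cells. The enzyme median for KO over WT was 0.00 (−0.39 to 0.40) in bipolar, 0.04 (−0.45 to 0.53) in cone and −0.19 (−0.58 to 0.21) in amacrine cells. The median of all genes was 0.01, 0.08 and 0.02. Whether classes differ in the enzyme median was not tested. In amacrine cells the 4 oxygen-using enzymes were all lower in KO (median −0.40). Of the 13 other enzymes compared, 7 were lower (median −0.03), and of all 12168 genes 5903 were. Only Msmo1 of the 4 had a KO over WT interval that leaves out 1. It read 156 CPM in WT, 92.1 in KO and 84.3 in treated, so that its treated level stayed with KO. In the amacrine cluster most evenly shared by WT and KO, however, the enzyme median was 0.46. Rod markers summed to 2237, 863 and 1539.9 CPM in these amacrine cells, and their part in the values was not tested.

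In rods the enzyme median for KO over WT was 0.42, and the median of all genes was also 0.42. With median-of-ratios scaling the enzyme median was 0.01. Single genes lay far from that median. Pmvk was at 4.88 times WT, as given above, while Scap was at 0.545 of WT (0.409 to 0.740) and Srebf1 at 0.634 (0.452 to 0.907). WT had 212 rods and KO 3813, after the bead depletion, and rod markers summed to 107377 CPM in WT and 65976 in KO rods. The median reads per rod were 14348.5 in WT and 3094 in KO. The libraries also filled different rod clusters. Cluster 19 held 150 WT and 37 KO rods, and cluster 0 held 56 and 3366. The part of depth and clusters in the rod ratios was not tested.

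Insig1 and Abca1 were followed from class to class. In bipolar cells Insig1 read 17.3 CPM in WT and 18.2 in KO, with treated at 0.927 of WT (0.762 to 1.13). There Abca1 read 15.5, 17.5 and 26.9 CPM, in WT, KO and treated, so it was highest in treated (1.73 times WT, 1.45 to 2.07). In amacrine cells Abca1 read 14.3, 13.2 and 21.1 CPM, with intervals that overlap. In cones Abca1 read 2.85, 11.4 and 6.83 CPM, from few reads. KO over WT was 3.98 there (1.89 to 8.99), under the minimum for comparison. Among the large classes, the level of Abca1 near 50 CPM was thus found in KO Müller cells and not in the other 4, of which rods read 7.29 to 9.33 CPM. Smaller classes also had such levels. Abca1 read 95.7 CPM in KO microglia (79 cells) and 50.4 in WT endothelial cells. In horizontal cells it read 36.5 CPM in WT, 47.5 in KO and 41.7 in treated.

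Endothelial cells, the cells in which TSPAN12 acts, were compared between WT (116 cells) and treated (35 cells), since KO held 2. All 12 endothelial markers had reads in both. The enzyme median for treated over WT was −0.88 over 12 enzymes, with 11 lower and 1 higher. WT gave 7963940 reads and treated 2106016, so genes met the minimum mostly through WT. The median and this count can therefore lean toward lower ratios. Of the enzymes not compared, Mvd (1.89) and Tm7sf2 (1.23) had ratios above 1. Acat2 (0.835), Lss (0.473), Idi1 (0.420) and Hsd17b7 (0.329) had ratios under 1, and all these intervals include 1. For all genes the median was −0.08, with 5221 of 9048 lower. The enzyme median ran from −0.98 to −0.78 over the alternatives. The interval spanned by the 2 middle enzymes, −2.67 to 0.55, includes 0. Past 1.5-fold lower were 5 enzymes (Hmgcs1, Fdps, Cyp51, Msmo1 and Sc5d) and Srebf2, where 6.02% of all genes were, and Abca1 was past 1.5-fold higher, where 4.34% of all genes were.

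The values behind this comparison are small. Msmo1 read 48.3 CPM in WT and 17.6 in treated endothelial cells, a ratio of 0.363 (0.190 to 0.679). Hmgcs1 read 48.1 and 16.1 CPM (0.336, 0.168 to 0.637), and Fdps 67.6 and 41.3 CPM (0.612, 0.388 to 0.907). Cyp51 read 19.8 and 4.27 CPM (0.215, 0.0460 to 0.706), and Sc5d 25.2 and 7.60 CPM (0.301, 0.0942 to 0.730).

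The treated levels rest on few reads. In treated there were 37 reads of Msmo1, 34 of Hmgcs1 and 9 of Cyp51, against 385, 383 and 158 in WT. Srebf2 read 52.2 CPM in WT and 32.3 in treated (0.618, 0.367 to 0.968). Abca1 read 50.4 CPM in WT and 76.4 in treated (1.52, 1.07 to 2.09), and Insig1 28.5 and 20.4 CPM (0.716, 0.353 to 1.25). Mural markers, 10 of 10 with reads, summed to 5573 CPM in WT and 7999 in treated endothelial cells, and erythrocyte markers, 6 of 6, to 28839 and 26465 CPM. Their part in the difference was not tested.

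**Figure D5:**
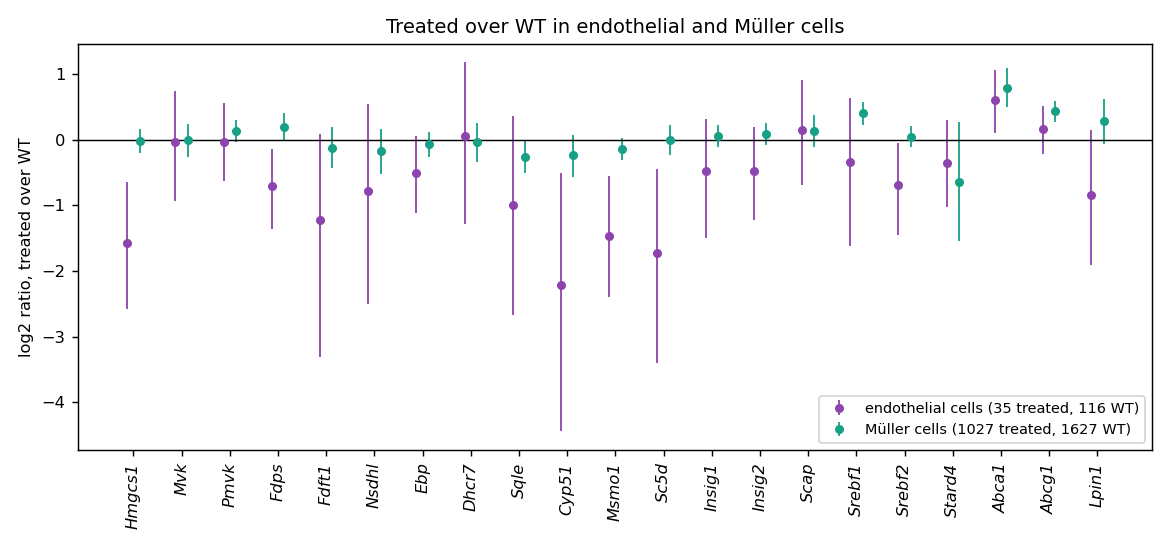
Log2 ratio of treated over WT for the 21 genes compared in endothelial cells, with the same genes in Müller cells beside them and bars for 95% counting intervals. In endothelial cells Hmgcs1, Cyp51, Msmo1 and Sc5d lie under −1, while in Müller cells the same genes lie between −0.24 and 0.00.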

How the data were processed

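The deposited tables, 1 per library, give the authors' estimated counts for every gene in every barcode. Between 2.33% and 2.39% of values were not whole, and values were taken as reads not collapsed to molecules. The build mm10 and Partek 9.0 are named in the submitters' processing notes, and the aligner, counter and use of strand are not given in the sources used here. The extract protocol in the labels gives the Chromium 3′ v3 kit. Totals were 118672560 (WT), 140445479 (KO) and 129812902 (treated) reads over all barcodes, and median reads per barcode were 14797, 7351 and 6588.

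Values were rounded. For intervals and minimums, reads were divided by 2.77 (WT), 2.87 (KO) or 3.19 (treated), an estimate of reads per molecule from rarely detected genes, to give molecule equivalents. Barcodes with under 500 genes or over 20% mitochondrial reads were left out, and those ranked most like simulated doublets were removed (297, 928 and 774), leaving 5784, 9311 and 8143 cells. Cells were clustered with scanpy 1.11.5 (2000 variable genes, 40 components, 15 neighbours, Leiden resolution 1.0). A cluster was named from at least 3 markers at 2-fold. Clusters with many markers of a second class (181, 226 and 151 cells) and unnamed ones (6, 499 and 372 cells) were left out. The rules on related classes and on shallow clusters were settled after the clusters were seen.

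Reads were summed per class and library. CPM ratios have exact conditional binomial 95% intervals, and levels exact Poisson ones. The interval of a list median is that of its middle member or members. Nothing pairs or replicates the libraries, so no test was run. On simulated counts the ratio intervals were checked against known folds. The genes, lists and markers were chosen with earlier results of these data known. All 27 genes are accounted for, and genes past 1.5-fold in Müller cells and the oxygen-using enzymes are given there in every library. Other genes are the 3 largest ratios past 1.5-fold of their list. Promoter windows are RefSeq on GRCm38.p6, and gene positions and exon overlaps are GENCODE on GRCm38 (mm10). The tried alternatives cover scaling, gene minimum, doublets, mitochondrial share, rounding, cell weights, depth, clustering and fold size.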

Additional observations from a re-analysis of the deposited data

How the results depend on the processing

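No paired analysis was possible because each group has 1 library. Of 288 values for lists and counts under 14 alternatives, 276 kept close to the reported value, 12 moved and 0 changed direction past the threshold, and of 1001 values for single genes 980 kept close, 21 moved and 0 did so. The Müller enzyme median for KO over WT (−0.42) was −0.17 in cells thinned to 5000 reads, where 15 enzymes were compared, and −0.13 in the most evenly shared cluster. The amacrine median for KO over WT (−0.19) was 0.46 in its most evenly shared cluster. The count of genes past 1.5-fold in KO over WT (6) was 2 in the most evenly shared Müller cluster and 3 at 2-fold, and in treated over KO (4) it was 1 at 2-fold. In treated over WT (1) it was 2 with at least 10 molecule equivalents, 2 with any gene with a read, 2 in the most evenly shared cluster, 2 with mixed clusters kept, 2 at resolution 0.5, and 0 at 2-fold. The cause of these shifts was not tested. Depth limits Idi1, Stard4 and Hsd17b7 and every endothelial value in treated, and the intervals leave out variation between animals.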
